A study of Homo sapiens with 9 samples.

Results

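The genes described here carry a solute carrier (SLC) symbol outside the amino acid carrier families. They were chosen by symbol alone, as SLC with a family number and a letter from A to F, leaving out the families SLC1A, SLC3A, SLC7A, SLC36A, SLC38A and SLC43A and pseudogenes. The rule found 34 of the 14884 genes that could be named on the arrays, and used no measured value. Of these, 21 are carriers, 12 are noncoding transcripts named after a neighbouring carrier gene and 1, SLC2A4RG, is a transcription factor. A current RefSeq gene table holds 333 plain carrier symbols of these families, of which 21 had a named probe, and the other carriers were not analysed here. The 34 are therefore weighted towards carriers that received an SLC symbol late, while the textbook carriers of glucose, lactate and zinc were not analysed here.

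WM983B, an established line of human melanoma cells, was kept for 24 h in DMSO vehicle, in 2.5 µM MS-275 or in 2.5 µM corin, and each treatment was read on 3 arrays, which makes 9. MS-275, also known as entinostat, inhibits the class I histone deacetylases (HDACs) through a benzamide that binds their zinc. In corin such a benzamide is linked to an amine oxidase warhead aimed at the histone demethylase LSD1. The labels call the second compound corin2, which was taken to be corin. The groups share 1 cell line, 1 dose of each inhibitor and 1 time, and the methods call the data representative of independent experiments without tying an array to one, and the p-values therefore cover array-to-array spread alone, some of it possibly technical.

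Solute carriers are membrane proteins that move a substrate down its gradient or couple its movement to that of an ion or a second substrate. Many of the members belong to the major facilitator superfamily, whose proteins share a fold of paired helical bundles that open to either side of the membrane in turn. Several of these had MFSD symbols before they were given SLC numbers, and for most of them the substrate is not settled. Others belong to families with carriers of the mitochondrion (SLC25), the Golgi apparatus (SLC35), the lysosome (SLC66 and SLC49) or bile acid export (SLC51). The site of a family need not hold for each of its members.

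The letters before and around the start of transcription are shown for the 2 carriers that responded most to corin, SLC61A1, which fell, and SLC60A2, which rose, and for the paralogs SLC71A1 and SLC71A2, which fell together. The windows run from 250 bases before to 50 bases after the start on RefSeq build GRCh38.p14, at chr12:53251845-53252144 for SLC61A1, chr6:111259089-111259388 for SLC60A2, chr1:100037845-100038144 for SLC71A1 and chr9:94374319-94374618 for SLC71A2, all on the plus strand. Capitals mark the E-box CACGTG in the first pair and the GC box GGGCGG, on either strand, in the second pair. The SLC61A1 window also held 5 GC boxes, starting 47 to 29 bases before the start, which are left in lower case.
SLC61A1: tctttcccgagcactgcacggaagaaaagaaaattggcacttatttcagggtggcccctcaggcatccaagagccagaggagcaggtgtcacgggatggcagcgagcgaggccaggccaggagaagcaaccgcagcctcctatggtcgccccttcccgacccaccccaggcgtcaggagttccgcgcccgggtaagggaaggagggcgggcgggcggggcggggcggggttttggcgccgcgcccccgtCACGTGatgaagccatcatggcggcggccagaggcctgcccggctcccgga
SLC60A2: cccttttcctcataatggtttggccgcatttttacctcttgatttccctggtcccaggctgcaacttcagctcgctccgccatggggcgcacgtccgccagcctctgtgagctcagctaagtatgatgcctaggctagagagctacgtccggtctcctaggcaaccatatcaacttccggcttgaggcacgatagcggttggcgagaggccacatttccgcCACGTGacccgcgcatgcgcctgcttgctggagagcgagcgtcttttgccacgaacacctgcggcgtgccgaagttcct
SLC71A1: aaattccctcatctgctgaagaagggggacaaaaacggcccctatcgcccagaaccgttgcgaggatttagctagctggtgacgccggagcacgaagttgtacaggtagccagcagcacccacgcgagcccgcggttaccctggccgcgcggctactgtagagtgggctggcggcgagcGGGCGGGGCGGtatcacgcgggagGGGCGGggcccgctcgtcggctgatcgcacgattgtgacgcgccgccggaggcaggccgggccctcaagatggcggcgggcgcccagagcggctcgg
SLC71A2: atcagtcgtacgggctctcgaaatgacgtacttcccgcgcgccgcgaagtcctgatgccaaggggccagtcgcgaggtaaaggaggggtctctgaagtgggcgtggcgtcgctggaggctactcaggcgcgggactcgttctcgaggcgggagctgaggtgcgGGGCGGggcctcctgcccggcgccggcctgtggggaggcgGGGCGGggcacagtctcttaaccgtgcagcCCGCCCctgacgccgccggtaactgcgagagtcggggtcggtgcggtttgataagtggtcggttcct
The E-box began 1 base before the start of SLC61A1 and 29 bases before that of SLC60A2, and the GC boxes of SLC71A1 and SLC71A2 lay 17 to 87 bases before the start. A promoter window was at hand for 25 of the 34 members. CACGTG stood in the windows of 2 of these 25, SLC60A2 and SLC61A1, and in 7.26% of the 35116 windows of all genes, while GGGCGG stood in 19 of 25 and in 45.0% of all windows. Both motifs were picked after these sequences were seen. The 2 genes with an E-box moved in opposite directions. The members' windows had a median GC content of 72.3% (48.7 to 87.0%), beside 58.7% over all windows.

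Of the motifs listed with the members, the metal response element (TGCACNC or TGCGCNC, both strands) was found in 11 of 25 members, SLC60A2 among them, and in 29.6% of all windows. The core of the hypoxia response element (ACGTG, both strands), which overlaps the E-box, was found in 6 of 25 and in 21.4% of all windows. The M-box (CATGTG), read by the melanocyte factor MITF, was found in SLC60A1 alone and in 11.1% of all windows. The AP-1 site (TGACTCA or TGAGTCA) and the amino acid response element were found in 0 of the 25 members, and in 4.95% and 1.96% of all windows. A match is a string of letters, and binding was not measured here.

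The members spanned most of the signal range of the arrays. Over the 9 arrays, 18 members lay at or above the median named gene, whose mean log2 signal was 5.36, and 16 lay below it. The brightest were SLC35F6, SLC49A4, SLC71A2, SLC71A1 and SLC66A1, with vehicle means of 10.05, 9.31, 9.58, 8.25 and 8.11. Of the 12 noncoding transcripts, SLC9A3-OT1 was the one above the median gene. Signals of different probes are not on a common scale of molecules, so this order describes brightness only. Below the median lay both subunits of the bile acid exporter, SLC51A and SLC51B, with vehicle means of 4.02 and 3.85, and the second ornithine carrier, SLC25A2, with 4.26.

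**Figure D1:**
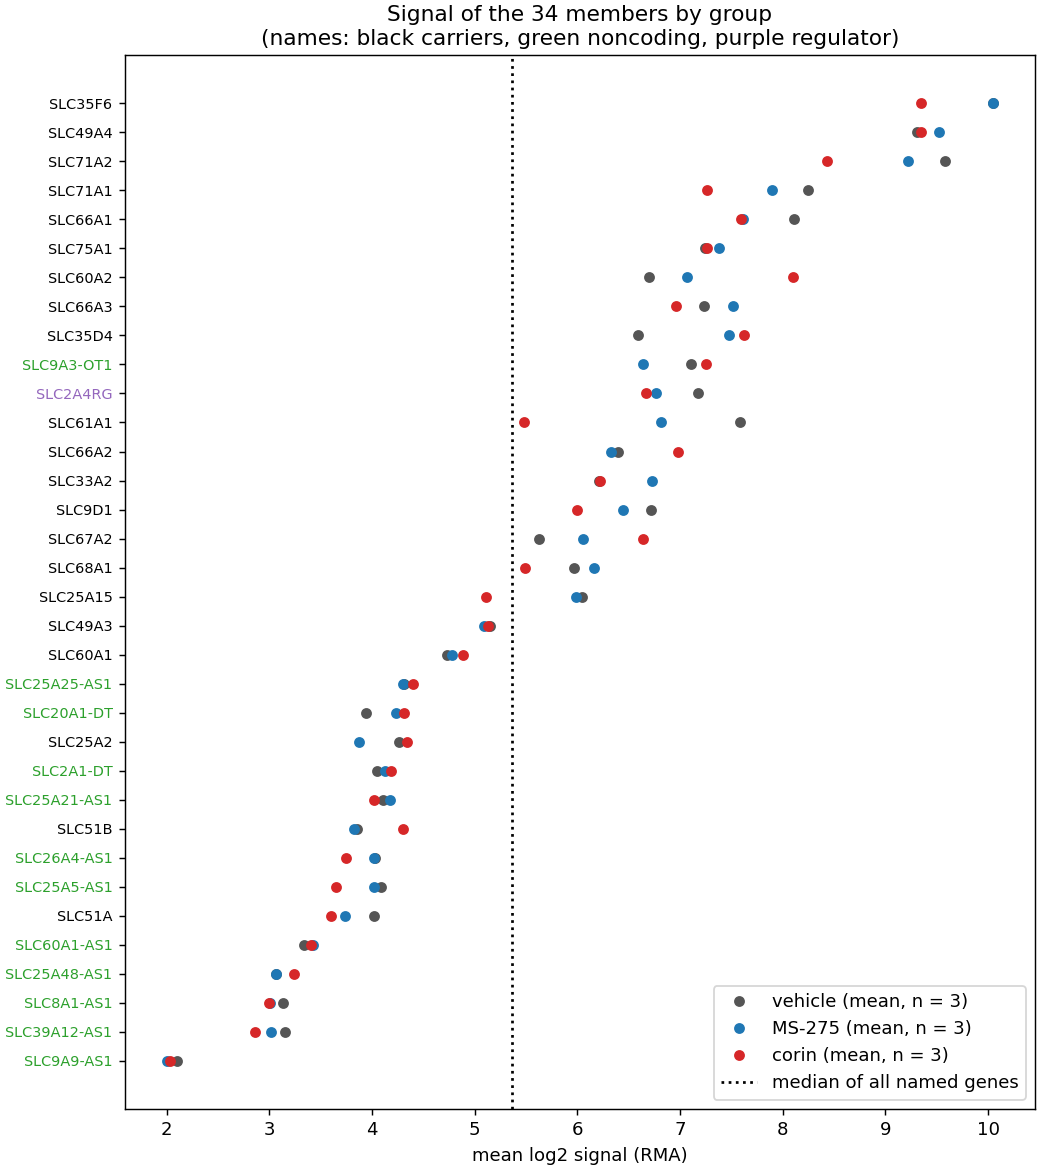
Mean log2 signal (horizontal axis) of each of the 34 members in vehicle, MS-275 and corin (points, n = 3 arrays each), ordered by the mean over all arrays. The dotted line is the median named gene, 5.36; 18 members lie at or above it, and the carriers with the widest separation between groups are among them.

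Arrays of 1 group correlated at 0.989 to 0.994 across genes and arrays of different groups at 0.902 to 0.97. Replicate SDs of the members had medians of 0.0997 (vehicle), 0.123 (MS-275) and 0.145 log2 units (corin), beside 0.104, 0.103 and 0.135 for all genes. The label was checked on markers. Of the melanocyte markers 7 of 7 measured had vehicle means between 7.97 and 10.56, and 5 of 5 keratinocyte markers lay below the median gene. The mean of the 7 melanocyte markers was 8.96 to 9.03 on the vehicle arrays, 8.6 to 8.77 with MS-275 and 6.96 to 7.06 with corin. The part of this shift in the changes of the carriers was not tested. Of the markers of other cells, 1 of 2 for fibroblasts, 1 of 3 for immune cells and 0 of 3 for endothelium lay above the median gene with vehicle, and KDR (endothelium) was called higher with both inhibitors.

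The first question was which carriers changed when HDACs and LSD1 were targeted together. After corin, SLC60A2, SLC35D4 and SLC67A2 were higher and SLC61A1, SLC71A2 and SLC71A1 were lower, with folds between 1.98 and 4.28. In these sentences a gene rose or fell where limma, fitted to all 14884 genes on all 9 arrays, gave a Benjamini-Hochberg adjusted p under 0.05. It was called where its fold also passed a threshold just under 2. The methods set this threshold at 2 SD when comparing corin with MS-275 over their annotated transcripts. It was applied here to every comparison and need not equal 2 SD in those with vehicle. By the call, 3 of 34 members were higher and 3 lower, beside 7.64% of all named genes higher and 8.04% lower. By the adjusted p alone, 5 rose (23.4% of all genes) and 12 fell (26.8%), and 17 had arrays that did not overlap between the groups (55.3%). These counts lie near the shares of all genes for the members as a whole. In RNA from a culture, fewer expressing cells and less RNA per cell cannot be told apart.

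The median log2 change of the 34 members after corin was -0.05, beside -0.04 for all named genes. Among the 18 brighter members it was -0.37, beside -0.10 for all genes as bright, and 10 of them fell and 4 rose, beside 40.7% and 30.1% of genes as bright. The median size of the change, whatever its direction, was 0.52 for the 21 carriers, of which 16 lay at or above the median gene, and 0.50 for all genes at or above it. It was 0.13 for the 12 noncoding transcripts, of which 11 lay below, and 0.18 for all genes below.

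**Figure D2:**
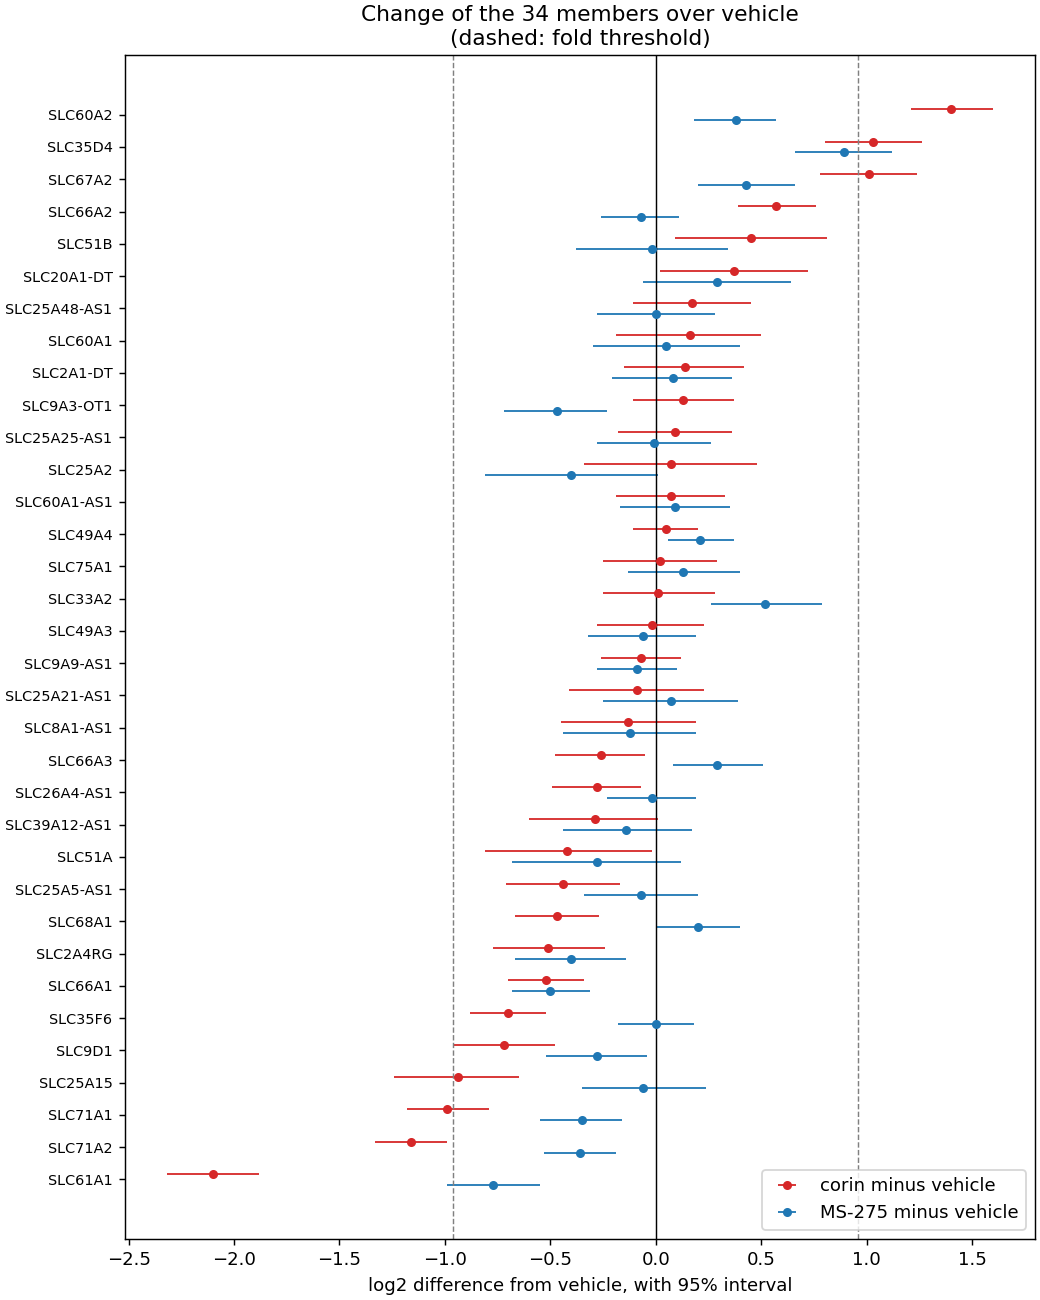
Log2 difference from vehicle (horizontal axis) of the 34 members after corin (red) and MS-275 (blue), with 95% intervals from the limma fit and dashed lines at the fold threshold. SLC61A1 lies at -2.10 and SLC60A2 at 1.40 after corin, and no blue point passes a dashed line.

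SLC61A1 (formerly MFSD5, hsMOT2), a homolog of a molybdate transporter of green algae, had the largest change of the 34 after corin. Its log2 signals were 7.52, 7.53 and 7.69 on the vehicle arrays, 6.68, 6.87 and 6.88 with MS-275, and 5.51, 5.61 and 5.33 with corin. The groups did not overlap, with MS-275 between vehicle and corin. Corin lowered it by 4.28-fold (log2 -2.10, 95% interval -2.32 to -1.88, adjusted p = 1.06e-08). With MS-275 it fell by 0.77 on the log2 scale (-0.99 to -0.55, adjusted p = 1.47e-04), short of the fold. The difference between the inhibitors was itself called, at -1.32 (-1.55 to -1.10, adjusted p = 1.33e-06).

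SLC60A2 (MFSD4B, NaGLT1), described in rat kidney as a sodium-dependent glucose transporter, moved the other way. Signals of 6.67, 6.61 and 6.81 with vehicle stood against 7.19, 7.07 and 6.96 with MS-275 and 8.06, 8.11 and 8.14 with corin. All 3 groups were apart, and the corin arrays lay within 0.1 of each other. The rise after corin was 2.64-fold (log2 1.40, 1.21 to 1.60, adjusted p = 1.02e-07). After MS-275 the rise was 1.30-fold (0.38, 0.18 to 0.57, adjusted p = 0.00743). Corin exceeded MS-275 by 1.03 log2 units (0.83 to 1.22, adjusted p = 3.70e-06), the 1 called member higher in that comparison. Its relative SLC60A1 (MFSD4A) had low signals, with group means of 4.73, 4.78 and 4.89, and passed no test.

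The paralogs SLC71A1 and SLC71A2 (MFSD14A and MFSD14B), orphan carriers first known in mouse as a transcript abundant in the hippocampus, fell in step. SLC71A2 read 9.59, 9.59 and 9.57 with vehicle, 9.29, 9.24 and 9.13 with MS-275 and 8.43, 8.45 and 8.40 with corin. SLC71A1 read 8.23, 8.22 and 8.29, then 7.88, 7.99 and 7.82, then 7.38, 7.29 and 7.12. In both genes the 3 groups were separate, in the same order. After corin SLC71A2 was lower by 2.23-fold (log2 -1.16, -1.33 to -0.99, adjusted p = 1.56e-07) and SLC71A1 by 1.98-fold (-0.99, -1.18 to -0.79, adjusted p = 2.25e-06). The MS-275 changes were -0.36 and -0.35 (adjusted p = 0.00404 and 0.0112), and the inhibitors differed by -0.80 and -0.63 (adjusted p = 9.13e-06 and 1.71e-04). SLC71A1 stood close to the fold threshold, and was not called at -0.91 without corin replicate 3 or at -0.96 without vehicle replicate 3.

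SLC67A2 (MFSD9), another orphan of the superfamily, rose with both inhibitors, and by more with corin. The arrays gave 5.67, 5.53 and 5.69 with vehicle, 6.08, 6.03 and 6.08 with MS-275 and 6.82, 6.67 and 6.42 with corin, so that no 2 groups overlapped. Its rise was 2.02-fold after corin (log2 1.01, 0.78 to 1.24, adjusted p = 6.36e-06) and 1.35-fold after MS-275 (0.43, 0.20 to 0.66, adjusted p = 0.00839), and the difference was 0.58 (0.35 to 0.81, adjusted p = 9.40e-04). The call after corin was lost without corin replicate 1 (0.92) or vehicle replicate 2 (0.96).

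**Figure D3:**
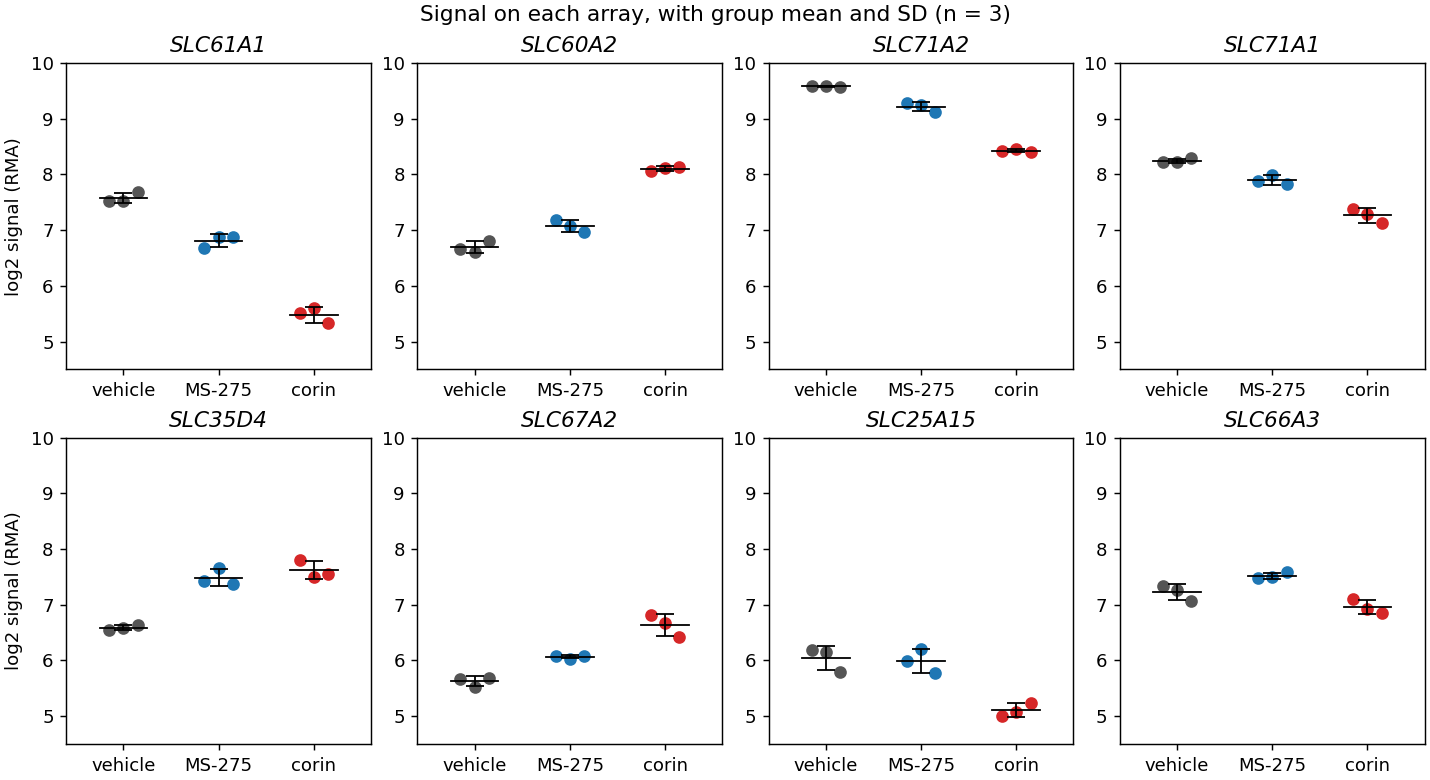
Log2 signal (vertical axis) on each of the 9 arrays for 8 members, with the group mean and SD (n = 3). SLC61A1 descends from 7.69 at most with vehicle to 5.33 at least with corin, SLC35D4 is at a like level with both inhibitors, and SLC66A3 is highest with MS-275 and lowest with corin.

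SLC68A1 (MFSD13A, TMEM180), also an orphan, fell with corin and differed between the inhibitors. It read 5.89, 5.98 and 6.04 with vehicle, 6.15, 6.04 and 6.30 with MS-275 and 5.57, 5.51 and 5.40 with corin. All corin arrays lay below all others, and the lowest MS-275 array just met the highest vehicle array to 2 decimals. The change was -0.47 after corin (-0.67 to -0.27, adjusted p = 0.00105) and 0.20 after MS-275 (0.00 to 0.40, adjusted p = 0.138), and the direct difference was -0.67 (-0.87 to -0.47, adjusted p = 1.37e-04).

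SLC33A2 (MFSD3), a relative of the carrier that brings acetyl-CoA into the endoplasmic reticulum, rose with MS-275. Vehicle arrays gave 6.22, 5.96 and 6.43, MS-275 arrays 6.79, 6.84 and 6.56 and corin arrays 6.22, 6.25 and 6.19. The MS-275 arrays stood above the rest, and the corin arrays fell within the range of vehicle. The change was 0.52 with MS-275 (0.26 to 0.79, adjusted p = 0.00621) and 0.01 with corin (-0.25 to 0.28, adjusted p = 0.942), a difference of -0.51 (-0.77 to -0.25, adjusted p = 0.00534). SLC75A1 (MFSD10, TETRAN), named for its likeness to bacterial tetracycline carriers, had group means of 7.24, 7.38 and 7.26 and passed no test, and neither did SLC49A3 (MFSD7), at 5.15, 5.09 and 5.13.

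The PQ-loop carriers of the SLC66 family each behaved differently. SLC66A1 (PQLC2) exports cationic amino acids from the lysosome. Its signals of 8.03, 8.15 and 8.16 with vehicle gave way to 7.61, 7.56 and 7.66 with MS-275 and 7.50, 7.67 and 7.60 with corin. Both inhibitor groups lay below vehicle and overlapped each other. The log2 changes were -0.50 (adjusted p = 8.54e-04) and -0.52 (adjusted p = 2.28e-04), and the difference of -0.02 had an interval of -0.21 to 0.16.

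SLC66A2 (PQLC1) rose with corin, from 6.32, 6.40 and 6.48 with vehicle to 6.96, 6.90 and 7.06, while the MS-275 arrays at 6.38, 6.35 and 6.26 overlapped vehicle. The corin change was 0.57 (0.39 to 0.76, adjusted p = 1.13e-04), the MS-275 change -0.07 (adjusted p = 0.58) and the difference 0.65 (0.46 to 0.83, adjusted p = 8.43e-05). SLC66A3 (PQLC3) differed between the inhibitors. It read 7.34, 7.27 and 7.07 with vehicle, 7.48, 7.50 and 7.58 with MS-275 and 7.10, 6.93 and 6.86 with corin. MS-275 arrays lay above vehicle, while corin and vehicle overlapped at 7.10 and 7.07. The difference was -0.56 (-0.77 to -0.34, adjusted p = 7.99e-04), and it stayed past the adjusted p under all 20 alternatives. Some of these change only the cut for a call, which leaves the adjusted p as it was. The changes from vehicle, 0.29 with MS-275 (adjusted p = 0.0435) and -0.26 with corin (adjusted p = 0.042), passed narrowly. The corin change was lost after quantile normalization (-0.11, adjusted p = 0.364) and without corin replicate 2 or 3 (adjusted p = 0.0954 and 0.123) or vehicle replicate 1 or 2 (0.15 and 0.113). The MS-275 change was lost with arrays centred on their medians (0.19, adjusted p = 0.157) and without any 1 of the MS-275 arrays or vehicle replicate 2 or 3 (0.076 to 0.165).

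Another lysosomal membrane protein, SLC49A4 (DIRC2), was bright and moved little. Vehicle arrays read 9.30, 9.35 and 9.28, MS-275 arrays 9.52, 9.53 and 9.51 and corin arrays 9.36, 9.33 and 9.37. A change of 0.21 with MS-275 passed the adjusted p narrowly (0.0439), and the corin change of 0.05 did not (0.635). The MS-275 change was 0.11 (adjusted p = 0.26) with arrays centred on their medians, and was lost when any 1 vehicle or MS-275 array was left out (adjusted p = 0.0741 to 0.122).

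SLC35D4 (TMEM241) belongs by its symbol to the family that brings nucleotide sugars into the Golgi apparatus. It rose alike with both compounds, from 6.55, 6.58 and 6.64 with vehicle to 7.42, 7.66 and 7.37 with MS-275 and 7.81, 7.50 and 7.56 with corin. Both treated groups stood apart from vehicle and overlapped each other. The rise was 2.04-fold with corin (log2 1.03, 0.80 to 1.26, adjusted p = 6.26e-06) and 1.86-fold with MS-275 (0.89, 0.66 to 1.12, adjusted p = 7.72e-05). The first passed the fold and the second did not, yet the difference between them was 0.14 (-0.09 to 0.37, adjusted p = 0.351). Without corin replicate 1 the corin change was 0.94 and not called, and after quantile normalization the MS-275 change was 0.97 and called.

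SLC35F6 (ANT2BP), of the same superfamily and named for binding an adenine nucleotide translocase, responded to corin. It gave 10.00, 9.99 and 10.16 with vehicle, 10.05, 10.10 and 10.00 with MS-275 and 9.42, 9.33 and 9.30 with corin. Corin arrays lay below the others, which overlapped. Corin lowered it by 1.63-fold (log2 -0.70, -0.88 to -0.52, adjusted p = 1.96e-05), the MS-275 change was 0.00 (-0.18 to 0.18) and the direct difference was -0.70 (adjusted p = 4.33e-05).

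Of the 2 mitochondrial ornithine carriers, SLC25A15 (ORNT1), which serves the urea cycle, was expressed above the median gene with vehicle. Its signals were 6.19, 6.16 and 5.80 with vehicle, 5.99, 6.20 and 5.77 with MS-275 and 5.00, 5.08 and 5.24 with corin. The corin arrays stood below the rest. It fell 1.92-fold with corin (log2 -0.94, -1.24 to -0.65, adjusted p = 9.82e-05), just short of the fold, and its log2 difference from MS-275 was -0.88 (-1.18 to -0.59, adjusted p = 2.89e-04). The call against vehicle was gained at -1.07 without vehicle replicate 3 and at -1.01 without corin replicate 3. SLC25A2 (ORNT2) had group means of 4.26, 3.87 and 4.34, and 0 of its 3 comparisons passed.

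SLC9D1 (TMCO3), of the cation-proton antiporters, read 6.71, 6.57 and 6.87 with vehicle, 6.57, 6.37 and 6.37 with MS-275 and 5.83, 6.06 and 6.10 with corin. Corin arrays were lowest, without overlap. The corin change was -0.72 (-0.96 to -0.48, adjusted p = 1.42e-04) and the MS-275 change -0.28 (adjusted p = 0.0737), and they differed by -0.44 (adjusted p = 0.00709). SLC2A4RG, a zinc finger factor that binds the promoter of the insulin-responsive glucose transporter gene, fell with both, with means of 7.18 (vehicle), 6.77 (MS-275) and 6.67 (corin). Its changes were -0.40 (adjusted p = 0.0256) and -0.51 (adjusted p = 0.00408), and the difference was -0.10 (-0.37 to 0.17). The first was lost without MS-275 replicate 1 or 3 or vehicle replicate 2 or 3 (adjusted p = 0.0739 to 0.0957).

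The subunits of the organic solute exporter, which work only as a pair, were both dim. SLC51B read 3.99, 4.01 and 3.55 with vehicle, 3.74, 3.99 and 3.74 with MS-275 and 4.12, 4.13 and 4.65 with corin. Its rise of 0.45 with corin (0.09 to 0.81) passed narrowly (adjusted p = 0.0378) at a signal below the median gene, and was 0.28 without corin replicate 3 (adjusted p = 0.141) and 0.30 without vehicle replicate 3 (adjusted p = 0.156). SLC51A had a corin change of -0.42 (-0.81 to -0.02, adjusted p = 0.0787).

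Among the 12 noncoding transcripts 0 were called in any comparison, beside 4.78% higher and 2.1% lower with corin over all genes below the median gene, where 11 of the 12 lay. For those genes the shares were 1.91% and 0.215% with MS-275, and 1.68% and 0.873% for corin against MS-275. The count of 0 lies near these shares. SLC9A3-OT1, which overlaps a gene of a sodium-proton exchanger, was the bright one, at 7.22, 7.02 and 7.10 with vehicle, 6.68, 6.57 and 6.66 with MS-275 and 7.48, 7.07 and 7.18 with corin. The MS-275 arrays lay below both other groups. It fell by 0.47 with MS-275 (log2 -0.47, -0.72 to -0.23, adjusted p = 0.0067), the corin change was 0.13 (adjusted p = 0.36), and the difference was 0.61 (0.36 to 0.85, adjusted p = 9.95e-04). The antisense transcripts SLC25A5-AS1 and SLC26A4-AS1 fell with corin, with log2 changes of -0.44 and -0.28 (adjusted p = 0.01 and 0.029), from vehicle means of 4.09 and 4.03. That of SLC26A4-AS1 was lost without corin replicate 1 or 2 or vehicle replicate 2 or 3 (adjusted p = 0.0509 to 0.107). SLC20A1-DT had a corin change of 0.37 (adjusted p = 0.0722), with its 3 arrays above vehicle. The other 8, SLC2A1-DT among them, had corin changes between -0.29 and 0.17 and passed no test.

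The next question was what an HDAC inhibitor alone did. With MS-275, 0 of 34 members were called higher and 0 lower, beside 3.2% and 0.517% of all named genes. By the adjusted p alone 6 rose (14.2% of all genes) and 6 fell (15.4%), and 14 did not overlap with vehicle (45.1%). SLC35D4 at 0.89 and SLC61A1 at -0.77 marked the ends of the range. The median change was -0.02, beside -0.03 for all genes. Both comparisons with vehicle use the same 3 vehicle arrays, so that an error in those arrays enters both.

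Corin and MS-275 were then compared directly at the same dose and time, as 1 pair of compounds. The paper reports that corin appeared both more potent and more efficacious than MS-275 at raising histone H3K9 acetylation in these cells. No array had an LSD1 inhibitor alone, so the LSD1 warhead and a difference in HDAC inhibition cannot be told apart here. SLC60A2 was called higher and SLC61A1 lower with corin, which is 1 member each way, beside 2.55% and 3.94% of all named genes. By the adjusted p alone, 5 were higher with corin (SLC60A2, SLC66A2, SLC9A3-OT1, SLC67A2 and SLC51B, 17.4% of all genes) and 11 lower (20.8%), and 17 did not overlap (46.6%). The median difference was -0.06 for the members and -0.14 for the 21 carriers, beside -0.03 for all genes. Without MS-275 replicate 3, SLC25A15 joined the members called lower, at -0.99. The differences of SLC51B, SLC25A5-AS1 and SLC26A4-AS1 between the inhibitors passed narrowly (adjusted p = 0.039, 0.031 and 0.0489) and were lost with single arrays left out. For SLC51B these were MS-275 replicate 1 or 3 or corin replicate 3 (adjusted p up to 0.136), for SLC25A5-AS1 replicate 1 or 2 of either inhibitor (up to 0.122), and for SLC26A4-AS1 any array but MS-275 replicate 1 (up to 0.192).

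**Figure D4:**
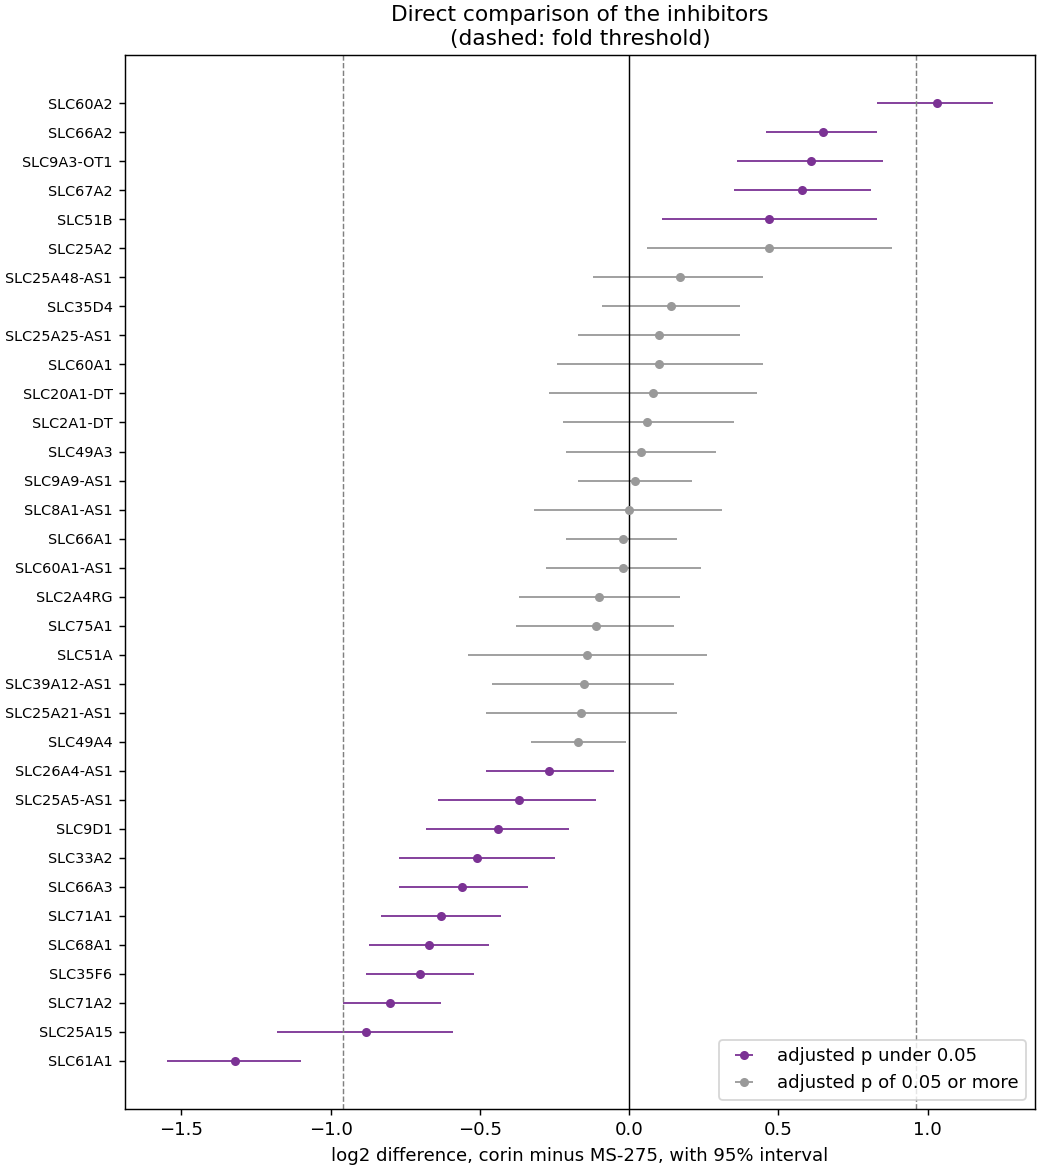
Log2 difference between corin and MS-275 (horizontal axis, corin minus MS-275) of the 34 members, with 95% intervals from the limma fit and dashed lines at the fold threshold; purple marks an adjusted p under 0.05. SLC60A2 at 1.03 and SLC61A1 at -1.32 lie past the dashed lines, and the interval of SLC66A1 spans -0.21 to 0.16.

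Genes that work beside carriers were followed as lists, chosen with earlier results of these data known, so that their counts only describe them. Their counts stand beside 7.64% of all genes called higher and 8.04% called lower with corin, and 3.2% and 0.517% with MS-275, and were not tested as sets. Of 9 glycolytic enzymes measured, PGAM1, phosphoglycerate mutase, was called lower with corin, by 2.96-fold (vehicle mean 7.49, corin mean 5.92, adjusted p = 2.67e-08), 0 were called with MS-275, and the list's medians were -0.42 and -0.22. The 10 metal handling genes measured were metallothioneins apart from MTF1 and HMOX1. Of these 10, 4 were called higher with corin and 2 with MS-275, and 0 lower, with medians of 0.70 and 0.35. These were the metallothioneins MT1G (means 4.08, 5.70 and 9.81 with vehicle, MS-275 and corin), MT1X (8.94, 10.70 and 11.94) and, with corin, MT1E (5.44 to 7.24), and the heme oxygenase HMOX1 (6.63 to 8.13). The metallothioneins MT1F, MT2A, MT1H, MT1B and MT1M were not called, with corin log2 changes of 0.61, 0.02, -0.12, -0.21 and -0.36. Metallothionein genes are near-copies, so that 1 probe may hold the signal of several. Of 16 partners and regulators of carriers, the kinase WNK3, which acts on chloride cotransporters, was called higher with both (1.34 with corin and 1.17 with MS-275), and so was RTBDN (1.22 and 1.45), a riboflavin binding protein, and 0 were lower. The medians of this list were 0.16 and 0.09. Of 11 melanosome and pigment genes 7 were called lower with corin and 0 with MS-275, with medians of -1.53 and -0.34, SOX10 (-3.24), MLANA (-3.09), TYR (-2.40) and TYRP1 (-2.39) by the most. In the direct comparison 1 of 9 glycolytic enzymes and 6 of 11 pigment genes were called lower with corin, beside 3.94% of all genes. Of 10 metal handling genes 3 were called higher, beside 2.55% of all genes, and 0 of 16 partners were called.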

How the data were processed

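Affymetrix Human Gene 2.0 ST arrays were run for 9 samples, 3 per group. The deposited values are log2 signals of 53617 probes, which the authors obtained by RMA and normalized with Partek software, and they were used without further scaling. The submitters' notes name hg19, and coordinates printed here are those of RefSeq GRCh38.p14. Probes were named through the platform annotation, with 16098 having 1 symbol and 37519 none here, giving 14884 genes. For 779 genes with several probes, none of them a member, the brightest probe by its 9-array mean was used. All 34 members matched RefSeq by gene ID.

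Groups were compared with limma 3.58.1 (R 4.3.3; lmFit and eBayes on all 9 arrays, prior degrees of freedom 5.07). A call needed a Benjamini-Hochberg adjusted p under 0.05 over all genes and a change of 1.952-fold or more. The methods equate that fold with 2 SD of the log ratios between their corin and MS-275 samples. The fit was tested on simulated data for corin against vehicle over 14884 genes, with 50 genes changed at each size. Of genes changed by 1 log2 unit, close to the fold threshold, 62% were called, with 98% at 1.5, 98% at 2 and 100% at 3. Of unchanged genes 0 were called. Far more genes passed the adjusted p in the measured data, so these shares need not carry over to them. The number of arrays limits the precision. An exact permutation test of 3 against 3 arrays could not go below p = 0.1 and was not used.

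Members, lists and motifs were chosen with earlier results of these data known. Members named were to be the 8 called members with the largest change each way per comparison, up to 4 per transport class and textbook carriers, and up to 4 called genes per list. Most transport classes and textbook carriers had no named probe, so all carriers were described by role instead, a grouping made after their values were seen. The alternatives were the replicate block, other models, folds, filters and scalings, and each array left out. Plots were made in Python 3.11.15 (matplotlib 3.10.9).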

Additional observations from a re-analysis of the deposited data

How the results depend on the processing

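Without a fold requirement, 5 members were higher and 12 lower for corin against vehicle, 6 and 6 for MS-275 against vehicle, and 5 and 11 for corin against MS-275. After quantile normalization 1 member, SLC35D4, was called higher with MS-275. With each array left out in turn, the counts were 1 to 3 higher and 3 to 3 lower for corin against vehicle, 0 to 0 both ways for MS-275 against vehicle, and 1 to 1 higher and 1 to 2 lower for corin against MS-275. The lowest, 1, came without corin replicate 1 and left SLC60A2. Arrays with the same replicate number showed no shared deviation. Their deviations from the group mean correlated between -0.0587 and 0.0175, beside -0.0399 to 0.0703 for arrays with different numbers. Such values cannot show whether arrays with the same number were handled together. With the replicate number as a block, the counts of calls were 3 and 3, 0 and 0, and 1 and 1, as without it, but 5 changes that rest on the adjusted p alone were lost, those of SLC66A3 with corin (adjusted p = 0.0505) and MS-275 (0.0551), SLC49A4 with MS-275 (0.0795) and SLC51B with corin against vehicle (0.0624) and against MS-275 (0.0658). A fold of at least 2 and quantile normalization each left 2 members lower for corin against vehicle, without SLC71A1 (-0.88 under the latter), and centring arrays on their medians gave 4, with SLC25A15 at -0.98. Centring moved the median of all genes by -0.105 for MS-275 against vehicle, and members by up to that much, so the smallest MS-275 changes are relative to this shift. Of the 45 member changes past the adjusted p, 0 reversed, and 36 stayed past it under every alternative run. The other 9, of SLC66A3, SLC51B, SLC49A4, SLC2A4RG, SLC25A5-AS1 and SLC26A4-AS1, lost it in 71 of the 894 values recomputed for all 45. These values include alternatives that change only the cut for a call, under which the adjusted p could not move. Averaging the probes of a gene also left the members' signals as they were. Calls by fold and adjusted p were lost in 7 values and gained in 42, most of the latter where no fold was required. Precision is limited by 3 arrays per group.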

Other observations

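Relatives of the members that keep an MFSD symbol, chosen after their values were seen, numbered 6 (MFSD1, MFSD2A, MFSD6, MFSD6L, MFSD8 and MFSD11). With corin 0 of them were called, beside 7.64% of all genes higher and 8.04% lower, 4 rose and 0 fell by the adjusted p, beside 23.4% and 26.8%, and their log2 changes ran from -0.22 to 0.41. The 10 members that once had an MFSD symbol ran from -2.10 to 1.40, with 2 called higher and 3 lower, and 2 rose and 4 fell by the adjusted p. The sets were not tested against each other. With MS-275, 0 of the 6 were called and 1 rose, while 0 of the 10 were called, 3 rose and 3 fell. Over all genes 3.2% were called higher and 0.517% lower with MS-275, and by the adjusted p 14.2% rose and 15.4% fell.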
